A study of Mus musculus with 2 samples.

Results

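Gsx1, Gsx2, Vax1, Nkx6-2, Nkx2-2, Sp9, Olig1, Olig2 and Pdgfra are factors of ventral telencephalic progenitors and of the oligodendrocyte lineage, and they were taken by gene symbol as a set of 9 of the 21896 genes listed. Their RNA was measured in the germinal layers of the mouse cortex, the ventricular and subventricular zones (VZ–SVZ), dissected at E13.5, in C57/BL6 embryos. The control library was Rcor2fl/fl, with both Rcor2 alleles floxed and no Cre. The Rcor2cko library carried the same floxed alleles with a Cre driven by the Nestin promoter, which is active in neural stem and progenitor cells throughout the nervous system and is not restricted to the cortex. There was 1 library per genotype, from embryos of Rcor2fl/+NesCre intercrosses that were genotyped and dissected separately, and the number of embryos in each library is not given in the sources used here. Every difference below is therefore a difference between 2 libraries without a replicate check, and no p-value was computed.

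Progenitors of the ventral telencephalon, in the ganglionic eminences, give rise to inhibitory neurons and to the earliest oligodendrocyte precursors, whereas progenitors of the dorsal telencephalon, sampled here, give rise to excitatory projection neurons. The homeobox factors Gsx1 and Gsx2 set the identity of the ganglionic eminences, Nkx6-2 and Nkx2-2 belong to the ventral programme that Sonic hedgehog (Shh) switches on along the neural tube, and Vax1 is a homeobox factor of the basal forebrain and optic stalk. Sp9 is a zinc-finger factor of immature inhibitory neurons, the basic helix-loop-helix factors Olig1 and Olig2 specify oligodendrocytes, and Pdgfra is the receptor through which oligodendrocyte precursors respond to PDGF-A. Rcor2 is a co-repressor that works with the histone demethylase LSD1. The comparison sets the RNA of genes of the other territory side by side in 2 libraries of dissected cortex, with and without its deletion.

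The sequences before the transcript starts are shown first, because the loci differed in how far their RNA departed between the libraries and these windows can be set beside those values. Of the 9 genes, 8 matched the RefSeq promoter sequences (build GRCm38.p6), and each window of 250 bases before the start had exactly 1 match in mm9, from which the mm9 coordinates were taken. Bases inside an exon of the same gene in GENCODE vM1 were left out, which shortened the window of Gsx2 to 113 bases and that of Sp9 to 249 bases. Of the windows not shown, that of Nkx2-2 was shortened to 197 bases and that of Vax1 to 0. Lines read 5′ to 3′ on the strand of the gene, and capitals mark the TATA box letters (TATAAA), the CCAAT box and an AG repeat (AGAGAG) on either strand. None of the marked matches overlapped another. Gsx2, Olig2, Pdgfra and Sp9 are shown as genes that were higher in the Rcor2cko library, and Gsx1 and Nkx6-2 as genes that were near the detection limit in both.
Gsx2 (chr5:75471376-75471488, plus strand): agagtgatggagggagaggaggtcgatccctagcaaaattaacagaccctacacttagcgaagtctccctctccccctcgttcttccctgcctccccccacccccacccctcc
Olig2 (chr16:91225545-91225794, plus strand): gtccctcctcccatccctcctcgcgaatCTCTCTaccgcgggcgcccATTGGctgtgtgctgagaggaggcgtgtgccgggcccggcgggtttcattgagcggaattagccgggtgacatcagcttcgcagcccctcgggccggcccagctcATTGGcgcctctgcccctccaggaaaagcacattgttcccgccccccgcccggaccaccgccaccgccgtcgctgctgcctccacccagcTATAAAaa
Pdgfra (chr5:75548026-75548275, plus strand): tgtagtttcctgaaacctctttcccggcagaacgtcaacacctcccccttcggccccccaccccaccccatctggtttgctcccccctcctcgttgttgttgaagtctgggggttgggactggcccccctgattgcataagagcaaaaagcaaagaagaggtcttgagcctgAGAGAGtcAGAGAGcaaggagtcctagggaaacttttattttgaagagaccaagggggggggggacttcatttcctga
Sp9 (chr2:73109733-73109981, plus strand): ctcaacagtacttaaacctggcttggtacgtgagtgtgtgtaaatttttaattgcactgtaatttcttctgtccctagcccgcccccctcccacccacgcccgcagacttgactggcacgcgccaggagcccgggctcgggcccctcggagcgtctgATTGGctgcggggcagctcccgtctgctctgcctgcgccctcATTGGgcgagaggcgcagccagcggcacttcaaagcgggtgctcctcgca
Gsx1 (chr5:148000022-148000271, plus strand): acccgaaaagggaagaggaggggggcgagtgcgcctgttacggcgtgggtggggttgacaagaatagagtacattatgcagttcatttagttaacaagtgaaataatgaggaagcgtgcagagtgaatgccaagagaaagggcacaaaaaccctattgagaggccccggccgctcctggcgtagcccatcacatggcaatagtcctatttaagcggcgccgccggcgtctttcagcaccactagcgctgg
Nkx6-2 (chr7:146768697-146768946, minus strand): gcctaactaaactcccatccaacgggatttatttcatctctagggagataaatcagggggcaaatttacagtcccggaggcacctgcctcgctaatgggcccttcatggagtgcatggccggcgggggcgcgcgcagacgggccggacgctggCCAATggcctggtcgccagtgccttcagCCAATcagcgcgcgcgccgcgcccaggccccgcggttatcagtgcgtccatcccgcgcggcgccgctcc

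Counted over the whole windows of the 8 genes, TATAAA occurred in 2 of 8, in Gsx2 starting 38 bases before the RefSeq start and in Olig2 starting 8 bases before it. In the wider set of 32851 RefSeq promoters, 12.4% held these letters. The match of Gsx2 lies in bases that GENCODE counts as the first exon of a transcript with an earlier start, and so is absent from the line above. CCAAT was found in 4 of 8 windows, those of Olig2, Sp9, Vax1 and Nkx6-2, with 2 matches in each, against 33.8% of all promoters. The whole window of Vax1, with its 2 matches, lies inside the gene as GENCODE annotates it. AGAGAG was found in 3 of 8 windows, those of Olig2, Pdgfra and Nkx2-2, against 23.4%. The E-box letters CANNTG, too common to mark, were in 6 of 8 windows and in 66.2% of all. Neither the homeodomain core TAATTA (4.8% of all promoters) nor the Gli letters GACCACCCA (0.2%) occurred in any of the 8 windows, which says only that these letters are not in these bases. The median GC content of the 8 windows was 59.4%, against 52.4% over all promoters. Their median ratio of observed to expected CpG was 0.785 against 0.374, and Pdgfra had the lowest ratio of the 8, at 0.22. CCAAT matches were thus found both before Sp9, called higher below, and before Nkx6-2, which was near the detection limit.

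Levels are given in FPKM, fragments scaled to transcript length and library size, with the 95% FPKM interval of the files. The files hold no counts, but low values fall on steps of whole fragments, from which fragments were recovered. The floor of detection was set at 3 fragments. Changes are log2 ratios of (FPKM + 0.1) with the Rcor2fl/fl value as the denominator, so that those of genes near 0 are understated, and a gene is called higher or lower past 1.5-fold if it reached 1 FPKM in at least 1 library. Folds are ratios of FPKM without the added 0.1, with a 95% exact (Clopper-Pearson) interval of the ratio of fragments that covers counting error only.

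The libraries as wholes were close in scale, with a median log2 change of -0.03 over the 11777 genes that reached 1 FPKM in at least 1 library. The step of 1 fragment implied scaling totals of 18841070 (Rcor2fl/fl) and 25481460 fragments (Rcor2cko), so that the second library was the deeper. Rcor2, measured over all its exons, was at 90.6 FPKM in the control and 55.7 FPKM after deletion, which is -0.70 on the log2 scale. Exons outside the LoxP sites remain in that value. The libraries also differed in sex-linked RNA, with Xist at 177 and 0.109 FPKM and the Y-linked Eif2s3y at 0 and 19.8 FPKM. The 9 genes lie on autosomes, and the part of this difference in their values was not tested. Dorsal cortical markers were high in both, as with Lhx2 (130.0 and 88.5 FPKM) and Neurog2 (84.3 and 88.0 FPKM), so the labelled tissue was present in each library.

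Gsx2, Olig1, Olig2, Pdgfra, Sp9 and Vax1 were all higher in the Rcor2cko library, by 2.61-fold to 6.77-fold for the 5 of them that had fragments in both libraries, and Gsx2 was listed at 0 in the control. Gsx1, Nkx6-2 and Nkx2-2 remained below 1 FPKM in both libraries. Of the 9 genes, 6 passed the filter of 1 FPKM and all 6 were called higher, none lower. Over all genes passing the filter, 3.79% were called higher and 1.76% lower. For 5 of the 6 the filter was met by the Rcor2cko value alone, so that these had to be higher to be counted, and Sp9 was the only member that passed in the control library. Without the filter the count was again 6 of 9, where 5.88% of the 21896 genes were past 1.5-fold. As many as 8 of the 9 genes were under 1 FPKM in the control, and 5 of these 8 reached 1 FPKM in the Rcor2cko library, which 2.7% of the 10400 genes starting below 1 FPKM did. In the opposite direction, 165 genes fell from at least 1 FPKM to below it. The 9 genes were chosen with earlier results of these libraries known, so these counts describe them and are not independent evidence of a direction.

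**Figure D1:**
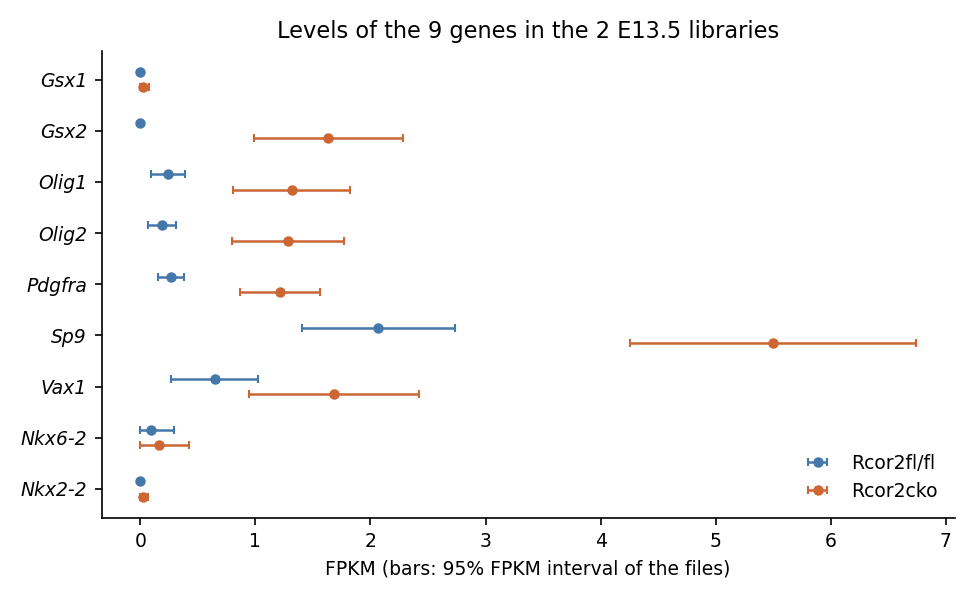
FPKM of each of the 9 genes (x axis) in Rcor2fl/fl (blue) and Rcor2cko (orange), with the 95% FPKM interval of the files as bars and 1 library per genotype. Sp9 is the highest in both libraries, at 2.07 and 5.50 FPKM, and Gsx1, Nkx6-2 and Nkx2-2 lie close to 0 in both.

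The homeobox factor Gsx2 went from 0 FPKM and 0 fragments in the control to 1.64 FPKM (95% FPKM interval 0.989 to 2.28) and 61 fragments after Rcor2 deletion. This was 15.1 times the floor of the control library, 3 fragments or 0.108 FPKM for this transcript, and the exact interval of the ratio of fragments began at 11.9-fold. Its log2 change with 0.1 added was 4.12, the largest of the 9, a value that depends on the constant added. Gsx1, its paralogue, was at 0 FPKM in the control and 0.0250 FPKM in the Rcor2cko library, from 1 fragment. Both values of Gsx1 lie under the floors of 0.101 and 0.0749 FPKM, so no fold is given, and a difference was not detectable at this depth.

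Vax1 was at 0.645 FPKM (0.267 to 1.02) in the control library and 1.68 FPKM (0.941 to 2.43) in the Rcor2cko library, from 10 and 35 fragments. The 2.61-fold difference had an exact interval from 1.26-fold to 5.91-fold, and the FPKM intervals of the files overlapped, unlike those of the other 5 genes called higher. The transcript of Vax1 in the files has 1017 nt, shorter than the gene as GENCODE annotates it, and fragments in the remaining exonic bases were not counted for it.

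Nkx6-2 was at 0.0930 FPKM (0 to 0.292) in the control and 0.161 FPKM (0 to 0.423) in the Rcor2cko library, from 3 and 7 fragments. The ratio of 1.73-fold had an interval from 0.395-fold to 10.4-fold, which includes no change. All control fragments of Nkx6-2 were assigned to its longer, non-coding RefSeq transcript of 1907 nt, while the coding transcript of 1306 nt was at 0 with a low-data flag. The annotated exons of Nkx6-2 share 245 bases with Inpp5a on the opposite strand. Counting by strand is not stated in the sources used here, so a contribution of Inpp5a, at 4.40 and 4.36 FPKM, cannot be told apart at a level this low. Nkx2-2 was at 0 in the control and at 0.0212 FPKM in the Rcor2cko library, from 1 fragment, under the floors of 0.0858 and 0.0637 FPKM. Its antisense partner Nkx2-2as, with which it shares 278 exonic bases, was listed at 0 in both.

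Sp9 was the most abundant of the 9 genes and the one measured with the least counting error. It stood at 2.07 FPKM (1.40 to 2.73) in the control and at 5.50 FPKM (4.26 to 6.74) in the Rcor2cko library, from 102 and 366 fragments. The 2.66-fold difference had an exact interval from 2.13-fold to 3.35-fold, and the FPKM intervals did not overlap. Sp9 made up 59.0% of the summed FPKM of the 9 genes in the control and 42.8% in the Rcor2cko library. That sum was 3.50 FPKM in the control and 12.8 FPKM in the Rcor2cko library, so that the other members together gained more than Sp9 did in proportion.

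Olig1 was at 0.242 FPKM (0.0923 to 0.391) in the control and 1.31 FPKM (0.804 to 1.83) in the Rcor2cko library, from 9 and 66 fragments. The ratio was 5.44-fold, with an exact interval from 2.70-fold to 12.4-fold. Olig2, the next gene on chromosome 16, was at 0.189 FPKM (0.0652 to 0.313) and 1.28 FPKM (0.794 to 1.77), from 8 and 73 fragments. Its ratio was 6.77-fold, from 3.26-fold to 16.3-fold, and the FPKM intervals of neither gene overlapped between the libraries. The level of Olig2 relative to Olig1, both in FPKM, was 0.783 in the control and 0.974 in the Rcor2cko library, so the pair kept similar levels in each.

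Pdgfra was at 0.267 FPKM (0.153 to 0.382) in the control and 1.22 FPKM (0.869 to 1.57) in the Rcor2cko library, from 32 and 197 fragments. The ratio was 4.56-fold, with an exact interval from 3.12-fold to 6.85-fold, and the FPKM intervals did not overlap. Its long transcript, of 6553 nt, yields more fragments at a given FPKM, which gave Pdgfra a narrower interval than Olig1 and Olig2 at about the same level. Of its 2 transcripts, that of 6570 nt held only 0.12 of the 32 control fragments as the files divide them. In bulk tissue, more cells of a type and more RNA per cell cannot be told apart, for Pdgfra or for any of the genes above.

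**Figure D2:**
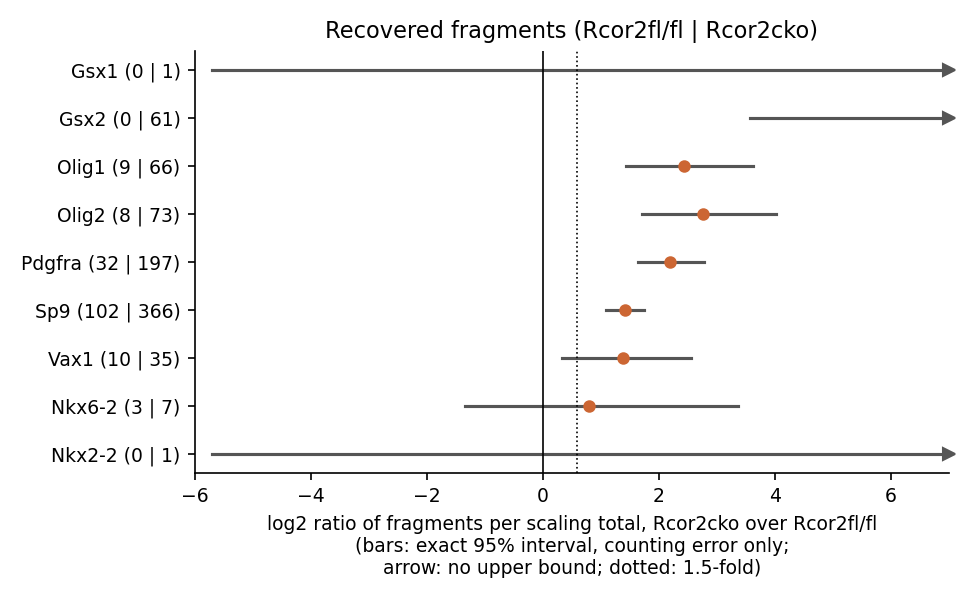
Log2 ratio of recovered fragments per scaling total, Rcor2cko over Rcor2fl/fl (x axis), for the 9 genes, with fragments in the control and in the Rcor2cko library in brackets beside each name. Points are the ratios, bars the exact 95% interval of counting error and arrows intervals with no upper bound, drawn without a point where the control has 0 fragments; the bars of Gsx2, Olig1, Olig2, Pdgfra and Sp9 lie right of the dotted line at 1.5-fold and that of Vax1 crosses it.

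The intervals also show how the genes differed among themselves. On the log2 scale without an added constant, the exact interval ran from 1.09 to 1.74 for Sp9, from 0.34 to 2.56 for Vax1, from 1.64 to 2.78 for Pdgfra, from 1.43 to 3.63 for Olig1 and from 1.70 to 4.02 for Olig2. These 5 intervals share values with one another, and no order among them is drawn. For Gsx2 the lower bound was 3.57, above the upper bounds of Sp9, Vax1 and Pdgfra but not of Olig1 and Olig2. Intervals were compared with the other genes only for the members that have 1 transcript and at least 1 fragment, 6 in number, to match how those genes were treated. Of these 6, 5 had an interval wholly above 1, against 12.0% of 12093 genes, and 4 had an interval wholly above 1.5-fold, against 1.71%. The 6 are Gsx1, Gsx2, Olig1, Olig2, Sp9 and Vax1, and the 2-transcript gene Pdgfra is not in this count. By the FPKM intervals of the files, 5 of the 9 genes were apart between the libraries. The share of all genes apart in this way was not computed, so this count is a description only.

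Over all 9, including the 3 that could not be separated from no change, the median log2 change was 1.37 without the filter. Over the 6 members that passed the filter it was 1.95, and over all genes that passed it was -0.03. For 5 of those 6 the filter was met by the Rcor2cko value alone. In recovered fragments the 9 genes summed to 164 in the control and 807 in the Rcor2cko library. In order of level the Rcor2cko library had Sp9 first, then Vax1, Gsx2, Olig1, Olig2 and Pdgfra, whose FPKM intervals overlap, and then Nkx6-2, Gsx1 and Nkx2-2. The control had Sp9, Vax1, Pdgfra, Olig1 and Olig2, then Nkx6-2, with Gsx1, Gsx2 and Nkx2-2 listed at 0. In the Rcor2cko library Gsx2 ranked 10906 of 21896 genes by FPKM, and Sp9 moved from rank 10467 to rank 8245.

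**Figure D3:**
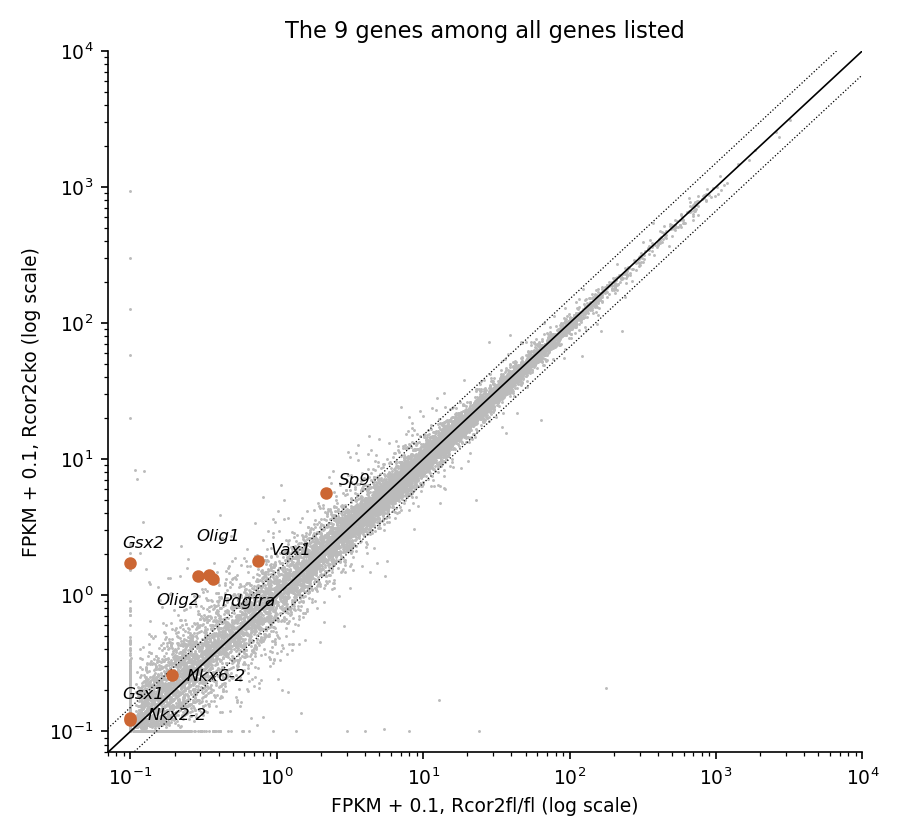
FPKM + 0.1 of every listed gene (grey) in Rcor2fl/fl (x axis) and Rcor2cko (y axis), both on log scales, with the 9 genes in orange; the solid line marks equal values and dotted lines a 1.5-fold difference. Gsx2, Olig1, Olig2, Pdgfra, Vax1 and Sp9 lie above the upper dotted line, and Gsx1, Nkx6-2 and Nkx2-2 lie at the lower end of both axes.

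Other genes of the same programmes were read from lists that, like the 9 genes, were drawn up with earlier results known. Of 14 further genes of ventral progenitors and Shh signalling, 7 passed the filter, of which 5 were called higher and 0 lower, with a median log2 change of 0.74 over those 7. Dlx1 and Dlx2, homeobox factors downstream of Gsx2 in the ganglionic eminences, were called higher, at 4.87 and 13.9 FPKM and at 2.96 and 11.2 FPKM. Six3, a homeobox factor of the rostral forebrain and of striatal precursors, was listed at 0 in the control and at 1.43 FPKM in the Rcor2cko library, which is 31.4 times the floor, and its exact log2 interval began at 4.65. Sp8, the relative of Sp9, went from 1.72 to 2.65 FPKM, and was called higher as well.

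None of the listed genes of the Shh pathway itself was called. Shh and Hhip were under 1 FPKM in both libraries and so could not be called. Gli1 and Ptch1, transcriptional targets of the pathway, were at 0.781 and 1.07 FPKM and at 2.22 and 2.56 FPKM, with exact log2 intervals from -0.06 to 0.97 and from -0.07 to 0.49. The ligand Shh was at 0.0429 and 0.0318 FPKM, with 2 fragments per library, below the floor. Nkx2-1, the homeobox factor of the medial ganglionic eminence, was at 0.128 and 0.190 FPKM, from 5 and 10 fragments. Its exact log2 interval ran from -1.11 to 2.47, which includes no change. The Shh-binding inhibitor Hhip was at 0.0418 and 0.0663 FPKM, with an interval from -0.72 to 2.20. Vax2 and Nkx6-1, paralogues of Vax1 and Nkx6-2, were at 0 in both libraries, as was Nkx2-4, of the same family as Nkx2-1 and Nkx2-2. Vax2, Nkx6-1 and Nkx2-4 were picked out after their values were seen.

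Of 16 further genes of the oligodendrocyte lineage, most of them expressed later than Olig1, Olig2 and Pdgfra, 7 passed the filter, 1 was called higher and 0 lower, and the median log2 change of the 7 was 0.27. The gene called was Lhfpl3, abundant in oligodendrocyte precursors, at 0.289 and 1.38 FPKM. Sox10, which maintains oligodendrocyte identity, was at 0.0843 and 0.125 FPKM, from 4 and 8 fragments, and the proteoglycan gene Cspg4, another marker of precursors, was at 0.703 and 0.540 FPKM. Gpr17, a receptor of committed precursors, was at 0.0531 and 0.244 FPKM, from 5 and 31 fragments, and did not reach 1 FPKM. Among those that passed without being called, Sox8 was at 7.51 and 8.01 FPKM and Zfp488 at 7.08 and 7.15 FPKM. The myelin genes Mbp (3.05 and 3.70 FPKM), Cnp (2.14 and 2.61 FPKM) and Mog (1.61 and 2.37 FPKM) were likewise not called.

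Of 16 genes of ventral-born neurons, 15 passed the filter, 12 were called higher and 0 lower, and the median log2 change of the 15 was 1.51. Some of the 12 passed by the Rcor2cko value alone. Where 1 FPKM was required in both libraries, 8 ventral neuron genes and 4 ventral progenitor genes were called higher. Sst, the neuropeptide of a class of cortical interneurons, was called higher, at 6.95 and 24.1 FPKM. Of 10 dorsal progenitor factors, all of which passed the filter, 0 were called higher and 2 lower, with a median log2 change of -0.29. Those 2, picked out after their values were seen, were Emx2 (21.5 and 13.9 FPKM) and Dmrt3 (4.88 and 2.99 FPKM).

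**Figure D4:**
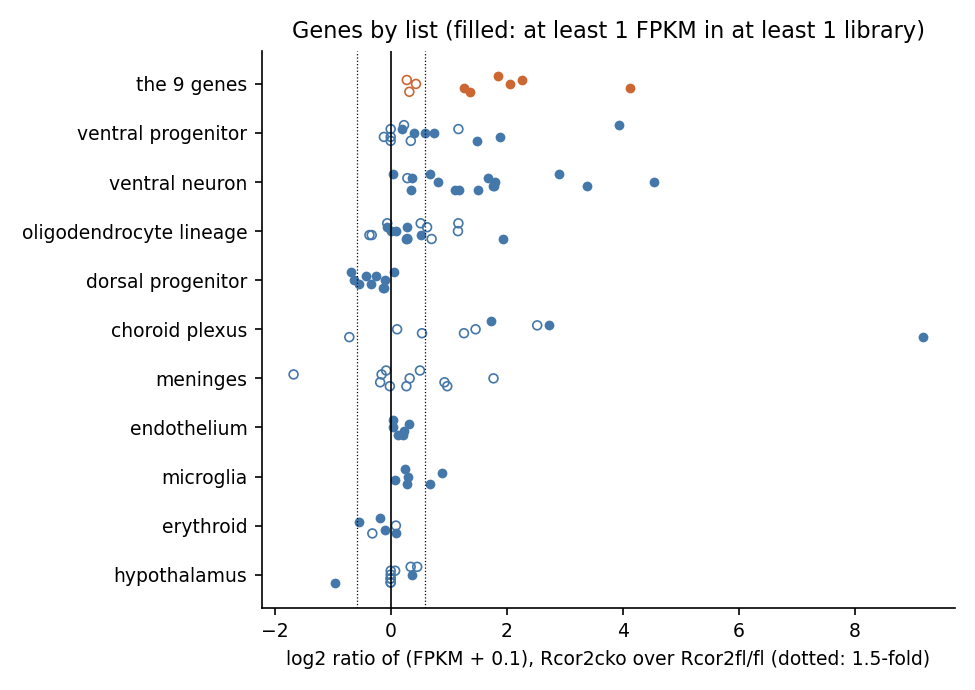
Log2 change on FPKM + 0.1 from Rcor2fl/fl to Rcor2cko (x axis) of the 9 genes (orange) and of each gene in 10 lists (blue), with filled points for genes at 1 FPKM or more in at least 1 library and dotted lines at 1.5-fold. Filled points of the ventral neuron list lie mostly right of the upper line, and those of the oligodendrocyte-lineage list mostly between the lines.

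Besides the ganglionic eminences, whose genes are in the ventral lists above, other tissues that border the dissected cortex and contain some of the same RNAs were read alongside. Pdgfra is also a gene of meningeal fibroblasts. The 11 meningeal genes summed to 2.33 and 2.89 FPKM, and 0 of them reached 1 FPKM, a level that Pdgfra itself only just passed in the Rcor2cko library. The collagen genes Col1a1 (0.0707 and 0.236 FPKM), Col1a2 (0.257 and 0.580 FPKM) and Col3a1 (0.662 and 0.856 FPKM) were among them, from 6 and 27, 24 and 73, and 67 and 117 fragments. The exact log2 interval was wholly above 0 for Col1a1 (0.43 to 3.30) and Col1a2 (0.49 to 1.90), and not for Col3a1 (-0.07 to 0.83). Ogn and Dcn, picked out after their values were seen, had intervals apart from 0 in opposite directions, with 1 and 19 fragments for Ogn and 16 and 4 for Dcn. Choroid plexus genes were higher where the 9 genes were. Of 9 listed, 3 passed the filter and all 3 were called higher. Each of the 3 passed by its Rcor2cko value alone, so that it had to be higher to be counted. Of the 9, 8 were higher at all, and their sum went from 1.27 to 63.0 FPKM. Most of that sum was Ttr, transthyretin, listed at 0 in the control and at 57.8 FPKM in the Rcor2cko library, and without Ttr the sum was 1.27 and 5.13 FPKM. Of 11 hypothalamic genes, 6 were at 0 in both libraries, 2 passed the filter, and the sum was 2.51 and 2.01 FPKM; Lhx5 (1.63 and 0.790 FPKM) was called lower and Pomc (0.849 and 1.12 FPKM) was not called.

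None of 6 endothelial genes was called, with Cldn5 at 12.4 and 12.7 FPKM and a list sum of 27.1 and 29.0 FPKM, and none of 6 erythroid genes, with Hbb-y at 36.0 and 33.6 FPKM and a sum of 89.4 and 80.6 FPKM. Of 6 microglial genes 2 were called higher, among them Csf1r (2.67 and 4.32 FPKM), and the sum was 13.8 and 19.1 FPKM. The ventral progenitor list summed to 19.1 and 44.1 FPKM and the ventral neuron list to 61.3 and 127 FPKM. More ganglionic eminence tissue in a dissection and more of these RNAs within the cortex cannot be told apart from such values. The part of ganglionic eminence, choroid plexus, meningeal or microglial RNA in the values of the 9 genes was not tested.

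The chromosomal surroundings of the 9 genes were not used to choose them. Gsx2 (chromosome 5, 75471489 to 75473918 in mm9, plus strand, 2 exons) and Pdgfra (75548316 to 75594229, plus strand, 23 exons) lie 74.4 kb apart with no listed gene between them, and both were higher in the Rcor2cko library. Chic2, the only other listed gene within 250 kb of this pair, was at 11.9 and 13.1 FPKM. Olig2 (chromosome 16, 91225795 to 91228922, plus strand, 2 exons) and Olig1 (91270014 to 91272184, plus strand, 1 exon) lie 41.1 kb apart, likewise with no listed gene between. Ifnar2, on the far side of Olig1, was at 9.09 and 7.98 FPKM, and Synj1, beyond Olig2, at 14.2 and 13.2 FPKM. Neither of them, nor Chic2, was called.

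Sp9 (chromosome 2, 73109982 to 73122763, plus strand) lies between Ola1, at 27.0 and 25.2 FPKM, and Cir1, at 19.2 and 19.1 FPKM. A longer annotated transcript of Sp9 shares 270 exonic bases with Cir1 on the opposite strand. Wipf1, 153.8 kb from Sp9, was called lower, at 1.39 and 0.889 FPKM. Vax1 (chromosome 19, 59240677 to 59245626, minus strand) had a neighbour called higher, Slc18a2, the vesicular monoamine transporter, 90.8 kb away, at 0.382 and 2.60 FPKM, which is 2.49 on the log2 scale. Stk32c, 146.1 kb from Nkx6-2 (chromosome 7, 146765276 to 146768696, minus strand), was called higher at 0.817 and 1.52 FPKM. Around Gsx1 (chromosome 5, 148000272 to 148002523, plus strand), Polr1d was at 86.1 and 80.9 FPKM and Lnx2 at 7.16 and 5.62 FPKM, and Xrn2 beside Nkx2-2 (chromosome 2, 147003282 to 147019979, minus strand) was at 42.0 and 41.5 FPKM. Within 250 kb of the 9 genes stood 37 other listed genes, of which 24 passed the filter, 2 were called higher and 1 lower. The median log2 change of the 24 was -0.01, beside -0.03 for all genes that passed and 1.37 for the 9 genes without the filter.

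**Figure D5:**
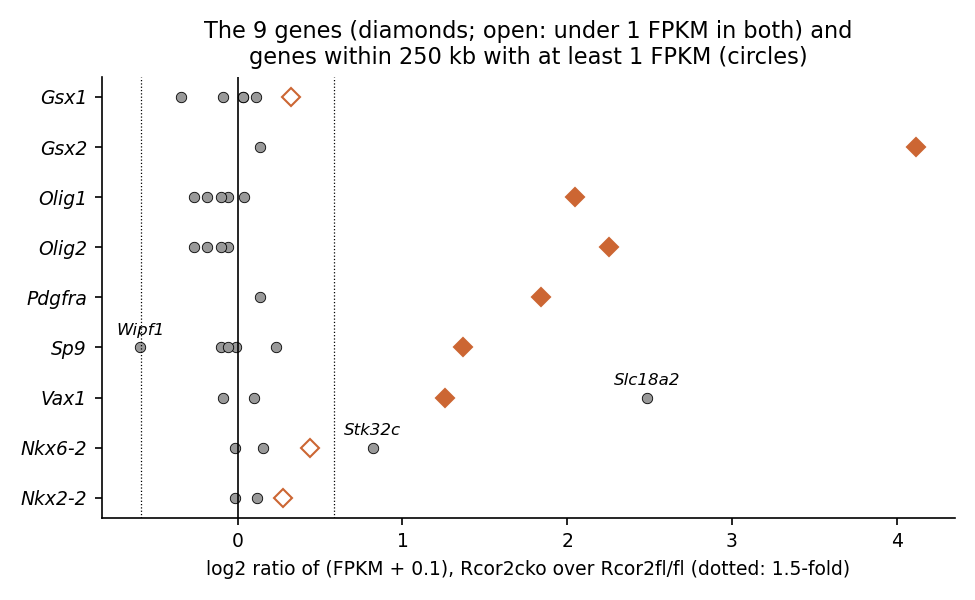
Log2 change on FPKM + 0.1 from Rcor2fl/fl to Rcor2cko (x axis) of each of the 9 genes (diamonds, open if under 1 FPKM in both libraries) and of the genes within 250 kb of it that reached 1 FPKM (circles), with dotted lines at 1.5-fold. Apart from Slc18a2, Stk32c and Wipf1, the circles lie between the dotted lines, and the 6 filled diamonds lie right of them.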

How the data were processed

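RNA of the E13.5 VZ–SVZ was prepared by the authors with RNeasy columns and a stranded mRNA kit (KAPA) and mapped to mm9. The submitters' processing notes name TopHat 1.3.3 and Cufflinks 1.2.0, whereas the methods of the study name a later TopHat release at default settings with Cuffdiff; which made the files was not settled. The authors deposited FPKM values with 95% FPKM intervals, in 27641 rows, 1 per RefSeq transcript, for Rcor2fl/fl and in 21896 rows, 1 per gene, for Rcor2cko. E15.5 was not analysed here.

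Rows of a gene were summed, and where a gene had several transcripts their interval half-widths were added in quadrature. No further scaling was applied. Genes at 1 FPKM or more in at least 1 library were called past 1.5-fold on FPKM + 0.1. Fragments were recovered by multiplying FPKM by the transcript length after subtracting an offset of 194.1 nt (Rcor2fl/fl) or 200.9 nt (Rcor2cko) and dividing by the step of 1 fragment, which was fitted on genes with a single transcript no shorter than 1000 nt. Of values up to 100 fragments, 99.3% of 4019 and 99.4% of 3961 lay within 0.1 of a whole number. For genes with 2 transcripts the length that gave whole numbers in both libraries was used. At 2000 nt the floor of 3 fragments was 0.0882 FPKM (Rcor2fl/fl) and 0.0654 FPKM (Rcor2cko). The exact intervals made from these fragments compare the 2 libraries and not the genotypes. The recovery was tested on simulated data. Positions are from GENCODE vM1 on NCBIM37 (mm9), counted from 1.

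The 9 genes and all lists were chosen with earlier results of these data known, and some of the 9 are named by the study. Named were the 9 genes and Rcor2, from the ventral progenitor, oligodendrocyte-lineage and meningeal lists each gene at 1 FPKM or more and the first 3 below it, from other lists the 2 of highest mean FPKM where a value adds to the text, and neighbours with both values at 1 FPKM or more or past 1.5-fold. Exceptions named after their values were seen are Vax2, Nkx6-1, Nkx2-4, Emx2, Dmrt3, Ogn, Dcn and Nkx2-2as. The values of some list genes are not reported here, although counts, medians and sums include them. The alternatives tried were 14 planned and 1 chosen after seeing the data. Python 3.11.15, numpy 2.4.6, pandas 2.3.3, scipy 1.17.1 and matplotlib 3.10.9 were used.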

Additional observations from a re-analysis of the deposited data

How the results depend on the processing

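No paired analysis was possible because each genotype has 1 library. Pseudocounts and scalings this close to 1 could not turn the direction of a member, so its direction under them says nothing of stability. The count of 6 members higher past 1.5-fold became 1, Sp9, where 1 FPKM was required in both libraries, and 1 where 5 FPKM was required in at least 1 library, since the other members do not reach those levels. It stayed within 1.5 times of 6 under 10 others, among them the exact interval wholly above 1, an alternative chosen after seeing the data. The median log2 change of 1.37 was 0.81 with a pseudocount of 1, 1.81 with 0.01 and 1.95 over the members that reached 1 FPKM, and leaving out each member in turn gave 1.31 to 1.61. Requiring 5 FPKM left 3 ventral progenitor genes, 7 ventral neuron genes and 0 oligodendrocyte-lineage genes higher and 1 dorsal progenitor gene lower. Past 2-fold, 3 ventral progenitor genes were higher and 0 dorsal progenitor genes lower. With no filter 5 oligodendrocyte-lineage genes and 3 meningeal genes were higher and 1 meningeal gene lower, and with 1 FPKM in both libraries 0 oligodendrocyte-lineage genes were higher. A pseudocount of 1, or FPKM intervals that do not overlap, left 1 dorsal progenitor gene lower. Scaling moved the median of all genes by at most 0.04 on the log2 scale. At these depths Gsx1, Nkx2-2 and Nkx6-2 could not be separated from no change.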
